A study of Mus musculus with 2 samples.

Results

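Heat shock proteins and chaperones were followed through 10 transcripts, Hspa1a, Hspa1b, Hspb1, Hspa8, Hsp90aa1, Hsp90ab1, Dnajb1, Hspa5, Hspd1 and Hsph1, which were looked up by symbol among the 32285 genes of the count matrices. All 10 were found, each under 1 gene identifier. Droplet-based scRNA-Seq had been performed on mononucleated cells of hindlimb muscle from female C57Bl/6J mice aged 24 months. One group (ATRA+agonist) had received 3 intramuscular injections of all-trans retinoic acid (ATRA, the ligand of the retinoic acid receptors) with CD3254 and BMS961, agonists of RXRα and RARγ, and the other group had received the DMSO vehicle (DMSO vehicle). Quadriceps and gastrocnemius muscles were digested with enzymes, cells were sorted after propidium iodide staining, and the cells of 2 mice were pooled into 1 library per group. With 1 library per group, no test between groups was possible, and the intervals given below are 95% intervals that cover counting error only, not the spread between mice. Treatment, mice and library preparation cannot be told apart in this design.

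Heat shock proteins are molecular chaperones that bind unfolded or partly folded proteins and prevent their aggregation. When misfolded protein accumulates, heat shock factor 1 is released from chaperones and binds heat shock elements, repeats of nGAAn in alternating orientation, ahead of its target genes, of which the inducible HSP70 genes are the best known. Enzymatic dissociation of muscle is known to induce both heat shock and immediate early genes in the cells it releases. The members hold different posts in this system: HSPA1A and HSPA1B are the inducible and HSPA8 the constitutive cytosolic HSP70, DNAJB1 hands substrates to HSP70, and HSPH1 exchanges its nucleotide. HSP90AA1 and HSP90AB1 are the inducible and the constitutive cytosolic HSP90, and HSPB1 is a small heat shock protein that holds unfolded proteins without ATP. HSPA5 (BiP) is the HSP70 of the endoplasmic reticulum and HSPD1 (HSP60) the chaperonin of the mitochondrial matrix.

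Promoter sequence was looked up in RefSeq (GRCm38.p6) for the 250 bases ahead of each annotated start, and 7 of the 10 members were matched, with 10 windows. Hspa8, Hsp90aa1 and Hsp90ab1 were not among them. Windows were searched on both strands for the paired units GAANNTTC and TTCNNGAA, either of which can overlap the other and which make up a heat shock element, and for the endoplasmic reticulum stress element. The Hspa1a and Hspa1b windows are shown in full because these 2 genes gave some of the lowest ratios below, and because they differ at only 3 of the 250 positions, counted from 1 at the 5′ end (C44T, T47C and T249G, with the Hspa1a base first). Hspb1 is shown as the other member with ratios below -0.5 in several classes, and capitals mark the motifs found.
Hspa1a, chr17:34972157-34972406, minus strand: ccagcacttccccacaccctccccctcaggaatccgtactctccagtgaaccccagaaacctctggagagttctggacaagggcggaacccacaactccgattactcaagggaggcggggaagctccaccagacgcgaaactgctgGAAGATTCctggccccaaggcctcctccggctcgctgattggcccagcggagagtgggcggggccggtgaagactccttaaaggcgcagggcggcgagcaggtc
Hspa1b, chr17:34959239-34959488, minus strand: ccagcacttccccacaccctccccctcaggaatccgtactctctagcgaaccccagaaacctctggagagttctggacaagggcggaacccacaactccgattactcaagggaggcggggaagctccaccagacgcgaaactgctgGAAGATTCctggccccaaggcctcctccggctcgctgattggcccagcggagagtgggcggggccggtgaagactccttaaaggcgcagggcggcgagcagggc
Hspb1, chr5:135887669-135887918, plus strand: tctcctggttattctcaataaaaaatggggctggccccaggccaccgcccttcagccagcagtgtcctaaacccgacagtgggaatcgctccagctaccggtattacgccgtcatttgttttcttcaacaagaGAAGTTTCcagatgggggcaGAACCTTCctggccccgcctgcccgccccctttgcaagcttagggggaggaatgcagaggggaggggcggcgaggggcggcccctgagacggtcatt

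For members whose windows overlap an annotated exon, only 30 bases around the motif are shown. Hspd1 held adjoining paired units ahead of its second annotated start, Hsph1 held 1 pair, and Hspa5 held the endoplasmic reticulum stress element.
Hspd1, chr1:55088053-55088082, minus strand: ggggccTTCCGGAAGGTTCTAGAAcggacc
Hsph1, chr5:149636351-149636380, minus strand: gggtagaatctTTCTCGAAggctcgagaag
Hspa5, chr2:34772020-34772049, plus strand: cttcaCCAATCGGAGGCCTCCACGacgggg
In all, 5 of the 7 matched members held a paired unit, and neither Dnajb1 window held one. Among all 32851 RefSeq windows of 250 bases, 6.69% held GAANNTTC, 7.17% held TTCNNGAA and 0.113% held the endoplasmic reticulum stress element. These matches describe the letters in the windows and not the binding of a factor.

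The Hspa1a and Hspa1b genes lie 9952 bases apart on chromosome 17 (GRCm38; Hspa1a at 34969190 to 34972156 and Hspa1b at 34956436 to 34959238, both on the minus strand with a single exon). Their coding sequences differ at 11 of 1929 aligned positions, whereas the transcripts share 48.1% of aligned positions after the stop codon. Reads from the coding part cannot be assigned to 1 of the 2 genes with certainty, so the pair is also given summed. Hspa1a overlaps Gm20481 on the other strand and Hspd1 overlaps Hspe1, the gene of its co-chaperonin, on the other strand, Hspa8 overlaps small nucleolar RNA genes on its own strand, and whether the counting used strand is not given in the sources used here.

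The matrices held 10444 barcodes with 65197625 UMIs for ATRA+agonist and 17394 barcodes with 109343486 UMIs for the DMSO vehicle, and 43 barcodes occurred in both. After filtering, 6907 and 6953 cells remained, with a median of 4702 and 4848 UMIs per cell. Cells were clustered without the chaperone, stress and immediate early genes, 20 of 24 clusters were named by markers, and each name ends in "-like" because it was rebuilt here. Members were compared in 8 classes with at least 100 cells in each library, from 1807 and 1887 endothelial-like cells to 134 and 396 neural (glial)-like cells, and levels are also given for 103 and 56 T or NK cell-like cells. Smooth muscle or pericyte-like cells are called SMC/pericyte-like and monocyte or macrophage-like cells macrophage-like. At least 5 markers were enriched in every cluster of these 9 classes. Perineurial-like cells differed in quality between the libraries, with a median of 1629 UMIs and 5.07% mitochondrial UMIs in ATRA+agonist and 3897 UMIs and 3.31% in the DMSO vehicle. Summed hemoglobin transcripts (4 genes), which mark free red cell RNA, were lower in ATRA+agonist in all 8 classes, by log2 ratios of -1.79 to -1.22. Their part in the results below was not tested.

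The members first differed in how widely they were present. Levels are UMIs per 1000000 UMIs of the class (CPM), and are compared within a gene only. Hspa8, Hsp90aa1, Hsp90ab1 and Hspa5 were at 329.8 or more in all 9 classes of both libraries, and their highest class exceeded their lowest by 1.78-fold (Hspa8, ATRA+agonist) to 2.44-fold (Hspa5, DMSO vehicle). Hspb1 was the most uneven, at 1147 CPM in endothelial-like cells and 2.36 in T or NK cell-like cells of the ATRA+agonist library. In the DMSO vehicle it reached 1321 in endothelial-like cells and was at 0 in T or NK cell-like cells, where a count of 0 allows up to 7.67. Hspb1 was thus highest in a class of the vessel wall and close to 0 in the 2 leukocyte-like classes, the other being macrophage-like cells at 6.02 and 7.18.

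**Figure D1:**
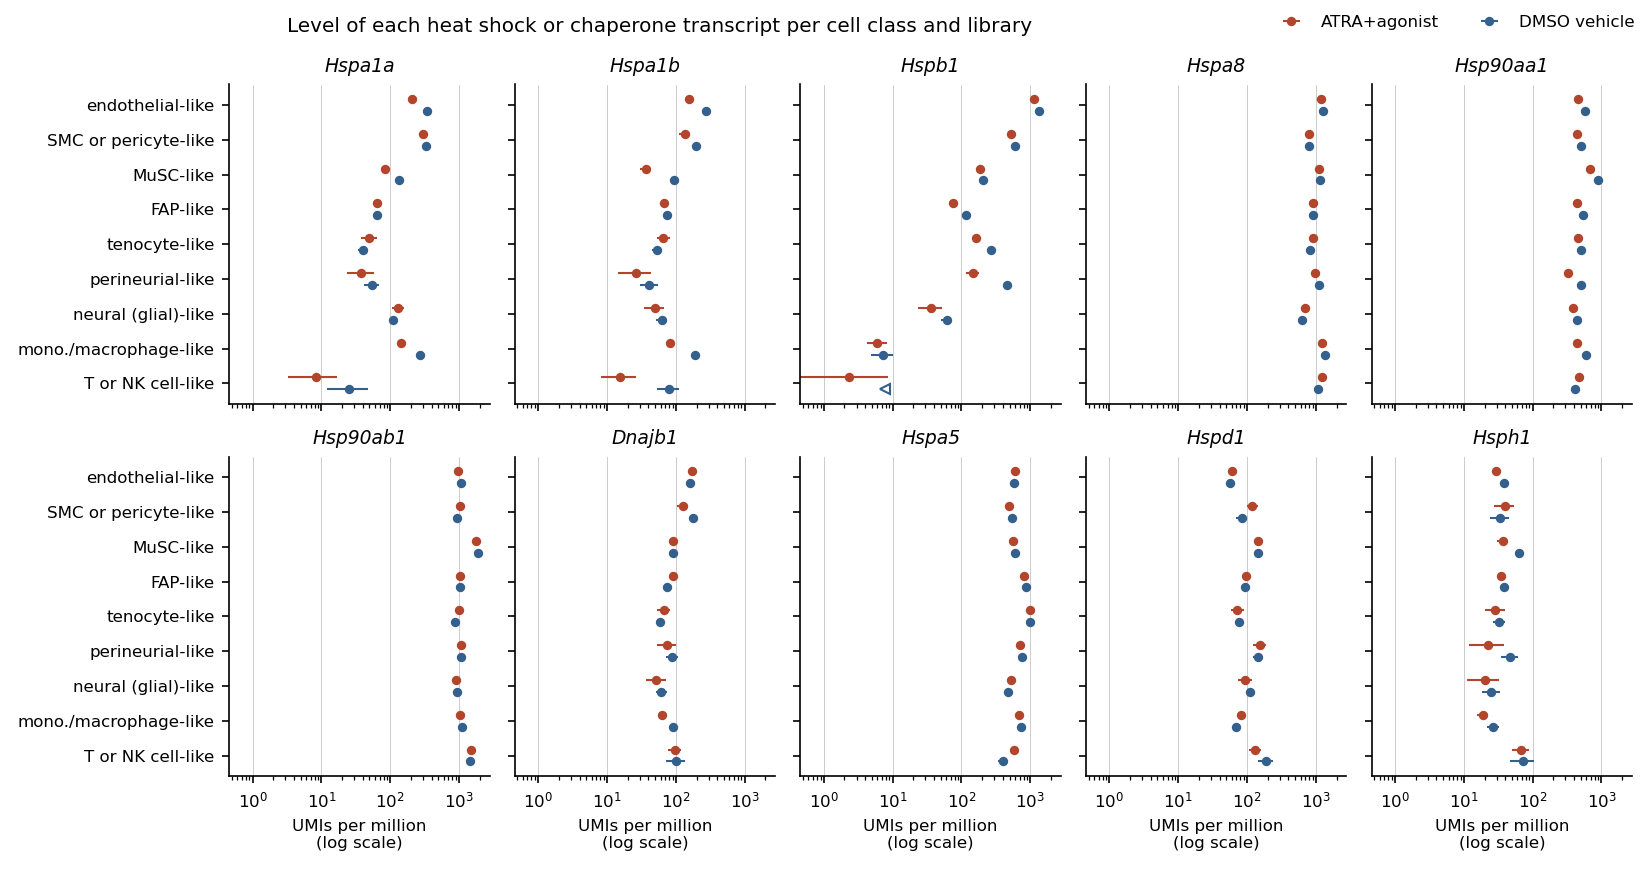
Level of each of the 10 members (CPM, log scale) in 9 cell classes of the ATRA+agonist (red) and DMSO vehicle (blue) library, as points with exact Poisson intervals. The open arrowhead marks the limit for Hspb1 in T or NK cell-like cells of the DMSO vehicle, where no UMI was found. Hspb1, Hspa1a and Hspa1b spread widely over the classes, whereas Hspa8, Hsp90aa1, Hsp90ab1 and Hspa5 stay within a narrow band.

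The inducible HSP70 genes followed the vessel wall and the macrophages. In the DMSO vehicle, Hspa1a was at 345 CPM in endothelial-like, 332 in SMC/pericyte-like and 270.0 in macrophage-like cells, and the first of these did not differ from the second beyond counting error. MuSC-like cells (muscle stem cells) followed at 136 and neural (glial)-like cells at 110, again within counting error of each other. FAP-like cells (fibro-adipogenic progenitors), perineurial-like and tenocyte-like cells lay between 64.9 and 40.4, and each neighbour in that order overlapped with the next. In ATRA+agonist, the order of Hspa1a opened instead with SMC/pericyte-like cells at 296, then endothelial-like at 209 and macrophage-like cells at 142. The last of these did not differ from neural (glial)-like cells at 131 beyond counting error. Hspa1b was led in both libraries by endothelial-like cells (157 in ATRA+agonist and 276 in the DMSO vehicle). SMC/pericyte-like (135 and 196) and macrophage-like cells (81.1 and 191) came next.

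The other members were led by different classes. Both HSP90 transcripts were highest in MuSC-like cells in both libraries, with Hsp90ab1 at 1764 and 1870 CPM (ATRA+agonist and DMSO vehicle) and Hsp90aa1 at 671 and 877. Hspa5 was highest in tenocyte-like cells (994 and 977) and next in FAP-like cells (823 and 868), which are both classes that secrete matrix. Hspa8 was highest in macrophage-like cells (1235 and 1351) and lowest in neural (glial)-like cells (694 and 638), although in ATRA+agonist the neighbouring class at either end, T or NK cell-like (1228) and SMC/pericyte-like cells (804), was within counting error. Dnajb1 was led by endothelial-like cells (169) in ATRA+agonist and by SMC/pericyte-like cells (175) in the DMSO vehicle, where endothelial-like cells at 158 did not differ beyond counting error. Hsph1 had its highest value in T or NK cell-like cells (67.2 and 71.6), within counting error of the next class in both libraries, and a median over the classes of 29.7 and 38.0. Hspd1 was lowest in endothelial-like cells of both libraries (60.5 and 56.0), the class in which Hspb1 was highest. In ATRA+agonist, tenocyte-like cells (72.5) were within counting error of that lowest value.

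Between the libraries, the compared members were more often lower than higher in ATRA+agonist. A member was compared in a class where it had at least 100 UMIs over both libraries, which held for 74 of 80 pairs of member and class, and a log2 ratio (ATRA+agonist over DMSO vehicle) of at least 0.5 in size was taken as past the fold. Only 1 of the 74 pairs was past the fold on the higher side and 13 were on the lower side. In 35 pairs the interval lay below 0, in 6 it lay above 0, and in 33 it included 0. Over all 53915 pairs of gene and class that passed the same minimum, the interval lay below 0 in 15% and above 0 in 16.3%. Whether an interval includes 0 also depends on the UMI count, for which these shares were not matched. Hsp90ab1 in FAP-like cells, with 13491 and 13804 UMIs, had its interval below 0 at a ratio of only -0.04. The 2 sets of shares are therefore not compared. The pairs past the fold were spread over all 8 classes, and the shares of all genes past the same fold differ between classes, so both are given class by class.

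In endothelial-like cells, 2 of 10 compared members were past the fold on the lower side, where 3.77% of 9449 genes were, and none on the higher side (6.6% of genes). In MuSC-like cells 3 of 10 were lower and none higher, beside 4.59% and 6.19% of 7257 genes. In macrophage-like cells 2 of 9 were lower and none higher, beside 3.65% and 3.51% of 7579 genes. These 3 classes hold 7 of the 13 lower pairs, 6 of them from Hspa1a and Hspa1b. In FAP-like cells 1 of 10 was lower and none higher, beside 6% and 3.43% of 11503 genes, which is 1 member only.

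The remaining classes held fewer UMIs and a larger share of genes past the fold. In tenocyte-like cells 1 of 10 members was lower and none higher, beside 10.1% and 6.14% of 6041 genes. In SMC/pericyte-like cells 1 of 9 was lower and 1 higher, beside 9.37% and 7.22% of 4182 genes. Neural (glial)-like cells had 1 of 9 lower and none higher, beside 9.25% and 6.56% of 5028 genes, and in each of these 3 classes the members' count was near the share of all genes. Perineurial-like cells had 2 of 7 lower and none higher, beside 25.5% and 9.74% of 2876 genes, so the members there were also near the background.

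The median over all members, including those below the count minimum, was below the median over all genes in 7 of 8 classes. It was -0.18 in endothelial-like cells (all genes 0.07), -0.35 in macrophage-like cells (0.03), -0.23 in neural (glial)-like cells (0.00) and -0.38 in perineurial-like cells (-0.12). The gap was smaller in FAP-like (-0.06 and 0.02), MuSC-like (-0.12 and 0.03) and SMC/pericyte-like cells (-0.15 and 0.01). Tenocyte-like cells were the exception, at 0.09 for the members and -0.02 for all genes. Over the compared members alone, the median was -0.44 in macrophage-like and -0.22 in perineurial-like cells. It was -0.21 in neural (glial)-like and -0.17 in SMC/pericyte-like cells.

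**Figure D2:**
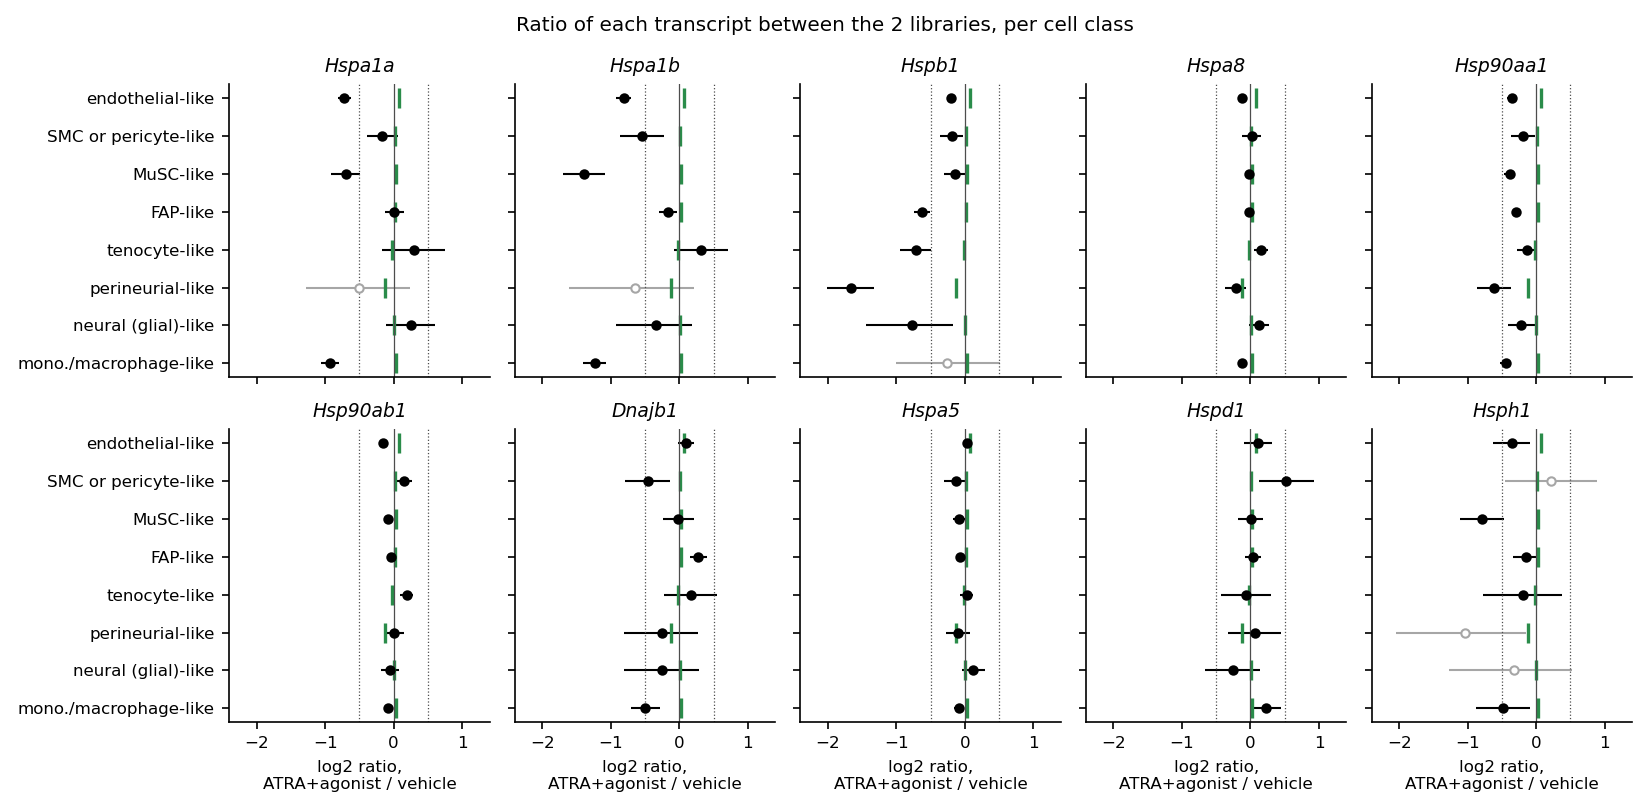
Log2 ratio of each member between ATRA+agonist and DMSO vehicle in 8 cell classes, with exact intervals for counting error. Filled points had at least 100 UMIs, open grey points had fewer, green bars mark the median of all genes in the class and dotted lines mark a log2 ratio of 0.5 in size. The filled points of Hsp90aa1, Hspb1 and Hsph1 all lie on the lower side, whereas Hspa8, Hsp90ab1, Dnajb1 and Hspa5 stay between the dotted lines.

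Hspa1a and Hspa1b, the inducible HSP70 genes, were lower in ATRA+agonist in some classes and not in others. In endothelial-like cells Hspa1a was at 209 CPM in ATRA+agonist and 345 in the DMSO vehicle (log2 ratio -0.72, -0.82 to -0.63) and Hspa1b at 157 and 276 (-0.81, -0.92 to -0.71). In macrophage-like cells Hspa1a was at 142 and 270.0 (-0.92, -1.06 to -0.79) and Hspa1b at 81.1 and 191 (-1.23, -1.40 to -1.06). In MuSC-like cells Hspa1a was at 83.8 and 136 (-0.70, -0.92 to -0.49), and Hspa1b, at 36.3 and 94.9, had the lowest ratio of the pair (-1.39, -1.69 to -1.09). Thinned to 1000 UMIs per cell, the MuSC-like ratios were -0.45 and -0.78, and without doublet removal the Hspa1a ratio of macrophage-like cells was -0.53. All of the intervals above lay below 0, and in each of the 3 classes the genes ranked in the lowest 2.13% of all tested genes or lower.

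In the other classes the 2 genes had smaller ratios or ratios of either sign. In FAP-like cells Hspa1a was at 65.3 in ATRA+agonist and 64.9 in the DMSO vehicle (0.01, -0.13 to 0.15) and Hspa1b at 66.4 and 74.6 (-0.17, -0.30 to -0.03). In tenocyte-like cells both were higher in ATRA+agonist with intervals that included 0, Hspa1a at 49.4 and 40.4 (0.29, -0.18 to 0.74) and Hspa1b at 66.1 and 52.9 (0.32, -0.08 to 0.72). In neural (glial)-like cells Hspa1a (0.25, -0.11 to 0.60) and Hspa1b (-0.35, -0.92 to 0.19) lay on either side of 0, and 1 cell of ATRA+agonist held 37 of the 135 UMIs of both genes. In the larger of the 2 neural (glial)-like clusters (86 and 213 cells), both were lower, Hspa1a at 134 and 185 (-0.46, -0.91 to -0.04) and Hspa1b at 38.3 and 104 (-1.43, -2.25 to -0.70). The class also holds a cluster of 48 and 183 cells, too few for a comparison. In SMC/pericyte-like cells Hspa1b was past the fold (135 and 196, -0.54, -0.86 to -0.22) and Hspa1a was not (296 and 332, -0.17, -0.39 to 0.06). Without the hemoglobin filter that Hspa1b ratio was -0.49, and the Hspa1a ratio of neural (glial)-like cells was -0.57 after thinning.

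Summed over both genes, the inducible HSP70 level was 366 in ATRA+agonist and 622 in the DMSO vehicle in endothelial-like cells (-0.76, -0.83 to -0.69), 120 and 231 in MuSC-like cells (-0.95, -1.12 to -0.77) and 223 and 461 in macrophage-like cells (-1.04, -1.15 to -0.94). The sum was 132 and 139 in FAP-like cells (-0.08, -0.18 to 0.01), whose interval does not overlap with any of those 3. In tenocyte-like cells it was 116 and 93.3, higher in ATRA+agonist (0.31, 0.01 to 0.60). Hspa1a made up 42.8% to 72.6% of the summed UMIs over the 8 classes of ATRA+agonist and 43.3% to 63.7% in the DMSO vehicle, with tenocyte-like cells lowest and neural (glial)-like cells highest in both. T or NK cell-like cells had 20 and 41 UMIs of the pair (23.6 and 105 CPM), too few to be compared under the count minimum.

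The share of cells with a UMI of either gene was lower in ATRA+agonist in some classes. With every cell thinned to 1000 UMIs, an Hspa1a or Hspa1b UMI was found in 22.3% of 1802 endothelial-like cells of ATRA+agonist (20.4% to 24.2%, exact binomial) and 36.5% of 1884 of the DMSO vehicle (34.3% to 38.7%), after 5 and 3 shallower cells were left out (0 to 4 in the next 3 classes). Without thinning, the shares were 44.1% and 63.7%, at median depths of 3404 and 3608 UMIs. In macrophage-like cells the thinned shares were 14.3% (11.4% to 17.6%) and 31.9% (27.4% to 36.7%), and unthinned 54.7% and 69.8% at 10859 and 9647 UMIs. In MuSC-like cells they were 12.7% (9.62% to 16.3%) and 18.8% (15.6% to 22.4%), and unthinned 35.7% and 58.6% at 7448 and 6469 UMIs, and the thinned intervals overlapped. FAP-like cells had 11.7% (9.98% to 13.6%) and 12.2% (10.7% to 14.0%), and unthinned 55.1% and 52.8% at 9902 and 8020 UMIs.

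In tenocyte-like cells the thinned share was 8.70% (4.84% to 14.2%) in ATRA+agonist and 6.19% (4.24% to 8.67%) in the DMSO vehicle, and unthinned 40.0% and 32.6% at 7141 and 5192 UMIs. SMC/pericyte-like cells had 25.7% and 32.2%, neural (glial)-like cells 8.96% (4.71% to 15.1%) and 16.5% (13.0% to 20.5%), and perineurial-like cells 2.29% and 6.47%. Unthinned, these were 52.6% and 63.1%, 35.8% and 38.4%, and 11.4% and 22.4%. The thinned intervals were apart between the libraries in endothelial-like and macrophage-like cells only, of the 8 classes.

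For comparison, T or NK cell-like cells, which had the lowest Hspa1a level in both libraries, gave thinned shares of 5.83% (2.17% to 12.2%) and 10.7% (4.03% to 21.9%) at median depths of 7571 and 5828 UMIs. The transcripts were concentrated in few cells: the 10% of cells with the most Hspa1a and Hspa1b UMIs held 58.2% of these UMIs in endothelial-like cells of ATRA+agonist and 45.3% in the DMSO vehicle. In MuSC-like cells the top 10% held 61.8% and 48.1%. For Hsp90ab1, the constitutive HSP90, the top 10% of endothelial-like cells held 31.8% in each library. Such a share also depends on the UMI count, which was not matched between genes or libraries. Endothelial-like cells held 2445 and 4661 UMIs of the pair and 6411 and 8050 of Hsp90ab1.

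Dnajb1 and Hsph1 act on the HSP70 cycle, and their ratios did not run in parallel. Hsph1, the nucleotide exchange factor, was lower in ATRA+agonist in all 5 classes in which it was compared, from -0.79 to -0.15, with 3 intervals below 0. It was at 36.6 CPM in ATRA+agonist and 63.3 in the DMSO vehicle in MuSC-like cells (-0.79, -1.11 to -0.47), which was past the fold. In endothelial-like cells it was at 29.7 and 38.0 (-0.36, -0.63 to -0.09) and in macrophage-like cells at 18.9 and 26.5 (-0.49, -0.88 to -0.09). Dnajb1, the J-domain partner, was higher in FAP-like cells (90.3 and 74.5, 0.28, 0.15 to 0.40), lower in macrophage-like cells (63.9 and 90.1, -0.49, -0.71 to -0.28) and lower in SMC/pericyte-like cells (127 and 175, -0.46, -0.79 to -0.13), and none of its 8 ratios was past the fold. In the remaining 5 classes the Dnajb1 interval included 0. Thinned to 1000 UMIs, Dnajb1 in SMC/pericyte-like cells was at 0.01 and Hsph1 in macrophage-like cells at 0.22, and the latter was also at 0.01 without doublet removal.

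The constitutive HSP70, Hspa8, differed little. Its 8 ratios ran from -0.22 in perineurial-like cells to 0.16 in tenocyte-like cells, none past the fold. In MuSC-like cells it was at 1129 CPM in ATRA+agonist and 1142 in the DMSO vehicle (-0.02, -0.08 to 0.05), beside the -0.95 of the inducible pair in the same cells. In FAP-like cells it was at 908 and 921 (-0.02, -0.06 to 0.02).

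The 2 cytosolic HSP90 transcripts separated in the same way. Hsp90aa1, the inducible form, was lower in ATRA+agonist in all 8 classes, from -0.61 in perineurial-like to -0.14 in tenocyte-like cells, and 7 of the 8 intervals lay below 0. Of 2088 genes with at least 100 UMIs in every class, 5.22% were lower in all 8 classes and 5.94% were higher in all 8. Of the 6 members that could be followed through all 8 classes, Hsp90aa1 alone kept to 1 side. Its level was 455 in ATRA+agonist and 583 in the DMSO vehicle in endothelial-like cells (-0.36, -0.42 to -0.29), 441 and 542 in FAP-like cells (-0.30, -0.35 to -0.25), 671 and 877 in MuSC-like cells (-0.39, -0.46 to -0.31) and 437 and 594 in macrophage-like cells (-0.44, -0.52 to -0.36). These differences are smaller than those of Hspa1a and Hspa1b in 3 of these 4 classes, and 1 of the 8, in perineurial-like cells, was past the fold (329.8 and 504, -0.61, -0.86 to -0.37), though at -0.48 without doublet removal. With every cell thinned to 1000 UMIs, its ratio turned to 0.12 in tenocyte-like and 0.02 in neural (glial)-like cells.

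Hsp90ab1, the constitutive form, ran from -0.16 in endothelial-like to 0.19 in tenocyte-like cells, with 4 intervals below 0, 2 above and 2 that included 0. It was at 1764 and 1870 CPM in MuSC-like cells (-0.08, -0.13 to -0.03) and at 1024 and 1049 in FAP-like cells (-0.04). None of its ratios was past the fold.

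Hspb1, the small heat shock protein, was lower in ATRA+agonist in all 7 classes in which it was compared, in an order that differed from that of the inducible HSP70 genes. It was past the fold in FAP-like cells at 74.7 and 115 CPM (-0.62, -0.74 to -0.50), in tenocyte-like cells at 163 and 266 (-0.71, -0.94 to -0.49) and in neural (glial)-like cells at 36.0 and 61.7 (-0.78, -1.44 to -0.17, from 27 and 123 UMIs). In the classes with the highest levels it was not past the fold, at 1147 and 1321 in endothelial-like cells (-0.20, -0.25 to -0.16) and 523 and 598 in SMC/pericyte-like cells (-0.19, -0.36 to -0.03). In MuSC-like cells it was at 186 and 207 (-0.15, -0.30 to 0.00). In FAP-like, tenocyte-like and neural (glial)-like cells Hspb1 was thus past the fold on the lower side where the Hspa1a interval included 0. Thinned to 1000 UMIs per cell, the FAP-like ratio of Hspb1 was -0.47, which is not past the fold.

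The Hspb1 ratio of largest size, -1.66 (-2.01 to -1.33), belonged to perineurial-like cells, at 146 CPM in ATRA+agonist and 461 in the DMSO vehicle. Thinned to 1000 UMIs, 8.40% of 131 perineurial-like cells of ATRA+agonist and 24.9% of 201 of the DMSO vehicle held an Hspb1 UMI, after 53 and 31 shallower cells were left out. Without the hemoglobin filter the ratio was -0.74, without doublet removal -1.10, and the class was the one whose depth differed most between the libraries. In neural (glial)-like cells the Hspb1 ratio turned to 0.20 after thinning to 1000 UMIs, when 6 of 134 and 19 of 394 cells held a UMI.

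In macrophage-like cells Hspb1 had 35 and 29 UMIs, below the minimum for a comparison. Thinned, 0.579% of 518 cells in ATRA+agonist and 0.748% of 401 in the DMSO vehicle held a UMI, and 0 of 103 and 0 of 56 T or NK cell-like cells did, which allows shares of up to 2.91% and 5.36%. These limits follow from the number of T or NK cell-like cells and do not measure a background. The shares in macrophage-like cells cannot be told apart from a background here and are not read as expression. In endothelial-like cells the thinned shares were 60.5% (58.2% to 62.7%) and 62.2% (59.9% to 64.4%), so that Hspb1 was present in most of these cells in both libraries.

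Hspa5 and Hspd1, the chaperones of the endoplasmic reticulum and of mitochondria, showed small ratios. Hspa5 ran from -0.13 in SMC/pericyte-like to 0.13 in neural (glial)-like cells, with 6 of 8 intervals including 0, and was at 591 and 577 CPM in endothelial-like cells (0.03, -0.03 to 0.10). Hspd1 had 2 intervals above 0 and none below over the 8 classes. It gave the only member value past the fold on the higher side, 119.8 in ATRA+agonist and 83.2 in the DMSO vehicle in SMC/pericyte-like cells (0.53, 0.13 to 0.92), which rests on 110 and 109 UMIs. That value was between 0.30 and 0.49 under 5 of 14 other settings, such as 0.30 without doublet removal, and 1.22 after thinning. In MuSC-like cells Hspd1 was at 146 in each library (0.00, -0.18 to 0.18).

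The endothelial-like class was made up differently in the 2 libraries, and the members were therefore read within its clusters. A cluster led by Aqp1 and Kdr, markers of capillary endothelium, held 1650 cells of ATRA+agonist and 781 of the DMSO vehicle. A cluster led by Cd274, Gbp4 and Ubd, genes known to respond to interferon, held 71 and 992 cells, and a cluster led by Cytl1, Nebl and Sema3g held 86 and 114. In the Aqp1 and Kdr cluster Hspa1a was at 199 and 436 CPM (-1.13, -1.25 to -1.02) and Hspa1b at 161 and 384 (-1.26, -1.38 to -1.13). Both differences were larger there than in the class as a whole.

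Of the other members, 3 were past the fold on the lower side in that cluster. Hsp90aa1 was at 456 and 650.0 (-0.51, -0.60 to -0.43), Hspb1 at 1201 and 1737 (-0.53, -0.58 to -0.48) and Hsph1 at 31.1 and 52.6 (-0.76, -1.08 to -0.44), none of which was past the fold in the class as a whole. That makes 5 of 10 members lower and none higher, beside 2.8% and 6.4% of 8255 genes in this cluster. Dnajb1 (0.05, -0.11 to 0.21) and Hspa5 (0.06, -0.02 to 0.15) were not apart from 0. In the Cytl1 and Sema3g cluster Hspa1a was at 290.2 and 510 (-0.81, -1.10 to -0.53) and Hspa1b at 99.4 and 302 (-1.60, -2.09 to -1.15).

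The cluster led by Cd274 and Gbp4 did not show these differences. Hspa1a was at 286 in ATRA+agonist and 249 in the DMSO vehicle there (0.20, -0.16 to 0.54), Hspa1b at 183 and 189.8 (-0.05, -0.51 to 0.37) and Hsp90aa1 at 469 and 506 (-0.11, -0.39 to 0.15), and all 10 intervals included 0. With 71 cells on the ATRA+agonist side, these intervals are wide, but the Hspa1a interval does not overlap with that of the Aqp1 and Kdr cluster. Within the DMSO vehicle alone, Hspa1a was higher in the Aqp1 and Kdr cluster (436) than in the Cd274 and Gbp4 cluster (249). Within ATRA+agonist the order was the reverse, at 199 and 286, with intervals that did not overlap. The chaperone genes had not been used for the clustering.

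**Figure D3:**
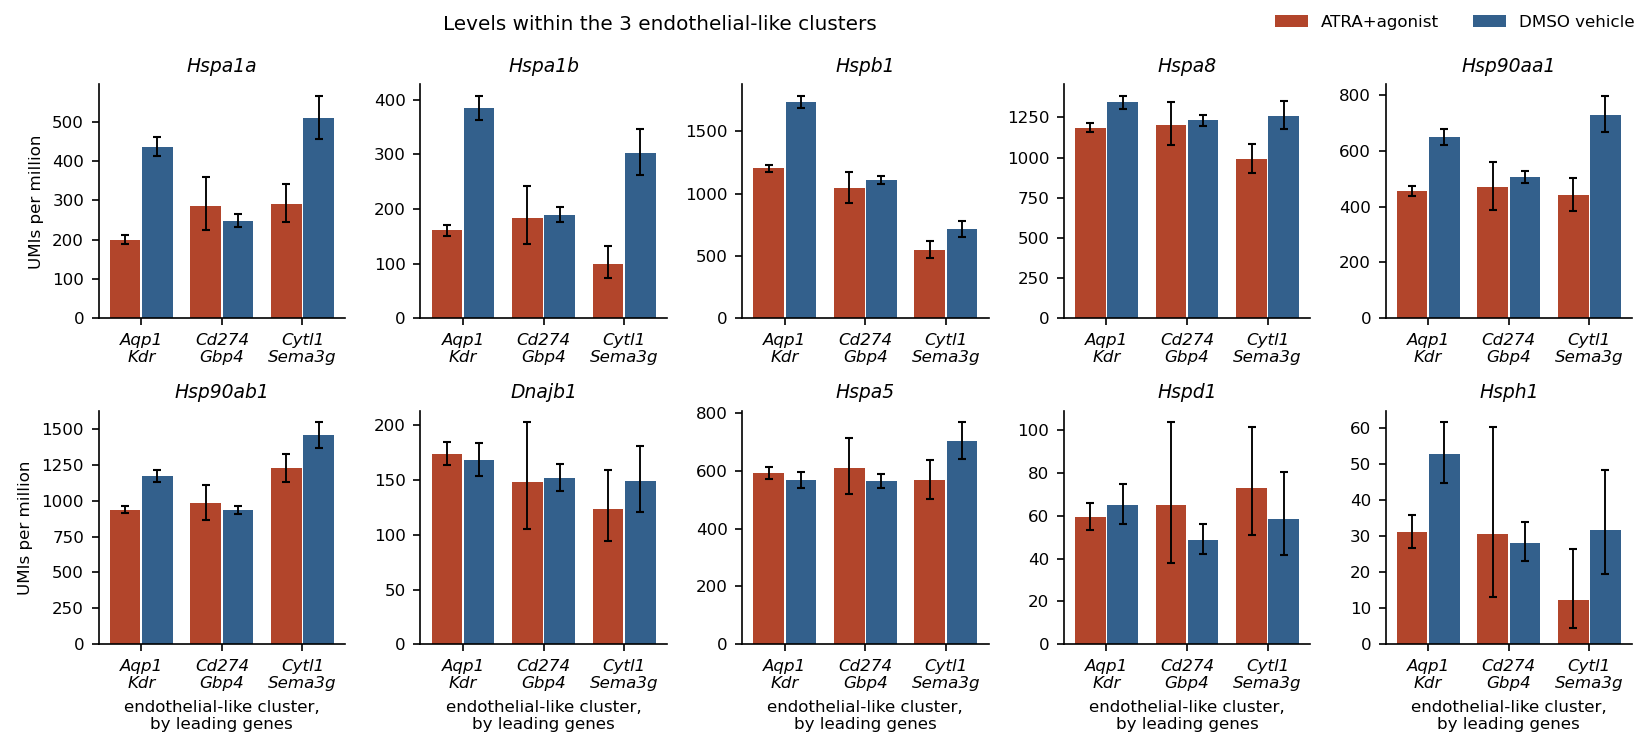
Level of each member (CPM) in the 3 endothelial-like clusters, named by leading genes, in ATRA+agonist (red) and DMSO vehicle (blue), as bars from 0 with exact Poisson intervals. Hspa1a and Hspa1b differ between the libraries in the Aqp1 and Kdr cluster and in the Cytl1 and Sema3g cluster, whereas the bars of the Cd274 and Gbp4 cluster overlap in their intervals for every member.

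FAP-like cells were made up of 3 clusters of 295 to 595 cells in ATRA+agonist and 268 to 689 in the DMSO vehicle. Hspb1 was lower in the Cxcl14 and Smoc2 cluster (67.4 and 95.8, -0.51, -0.69 to -0.32), in the Gdf10 and Fst cluster (110 and 154, -0.49, -0.66 to -0.31) and in the Sema3c and Pi16 cluster (44.9 and 81.4, -0.86, -1.18 to -0.54). Hsp90aa1 was lower in all 3 as well, at -0.26, -0.32 and -0.35. Hspa1a had an interval that included 0 in each of them, at -0.06, -0.02 and 0.22.

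Whether members were found in the same cells was then described. With every cell thinned to 1000 UMIs, cells with at least 1 Hspa1a or Hspa1b UMI were set against cells without one in 16 combinations of class and library, and the log2 ratio of each other member's level was taken. In endothelial-like cells of the DMSO vehicle, 688 cells with and 1196 without such a UMI differed in Hsph1 (74.1 and 21.7 CPM, 1.77, 1.06 to 2.51) and Hsp90aa1 (791 and 463, 0.77, 0.60 to 0.94). They also differed in Hspb1 (1762 and 1207, 0.55, 0.43 to 0.66), Dnajb1 (186 and 132, 0.49, 0.15 to 0.84) and Hspa5 (657 and 500.0, 0.39, 0.21 to 0.57). In ATRA+agonist the same comparison gave 1.48 (0.65 to 2.31) for Hsph1 and 0.80 (0.58 to 1.02) for Hsp90aa1. The Hspd1 intervals included 0, at 0.13 (-0.65 to 0.86) in ATRA+agonist and -0.08 (-0.69 to 0.51) in the DMSO vehicle. At 2000 UMIs per cell the Hspa5 difference was 0.57 (0.44 to 0.70) in ATRA+agonist and 0.08 (-0.05 to 0.20) in the DMSO vehicle, an interval that included 0.

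Over all classes the same direction was frequent for some members and not for others. The ratio was above 0 in 15 of 16 combinations for Dnajb1 (median 0.82), in 14 of 15 with a value for Hsp90aa1 (0.32), in 12 of 13 for Hspb1 (0.92) and in 13 of 16 for Hspa8 (0.38). No count minimum was set for these ratios. The Hspb1 values of macrophage-like cells, 1.58 in ATRA+agonist and 2.09 in the DMSO vehicle, rest on 1 and 2 and on 2 and 1 UMIs. The interval lay above 0 in 7 combinations for Hspb1, 6 for Hspa8, 5 each for Hsp90aa1 and Hsp90ab1, 4 for Dnajb1, 3 for Hspa5 and 2 for Hsph1. Hspd1 stood apart with a median of 0.10, no interval above 0 and 1 below it. At 2000 UMIs per cell the medians were 0.55 for Dnajb1, 0.30 for Hsp90aa1, 0.37 for Hspb1, 0.32 for Hspa8, 0.26 for Hspa5, 0.36 for Hsph1, 0.09 for Hsp90ab1 and -0.09 for Hspd1. At that depth Hspb1 was above 0 in 10 of 16 combinations, beside 15 for Dnajb1, 13 for Hsp90aa1 and 16 for Hspa8. For Hspb1, 8 intervals then lay above 0 and 1 below it. Cells of 1 class share a library and can come from several clusters, and they are not replicates. These counts have no share over all genes beside them, so whether the direction is particular to the members was not tested.

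**Figure D4:**
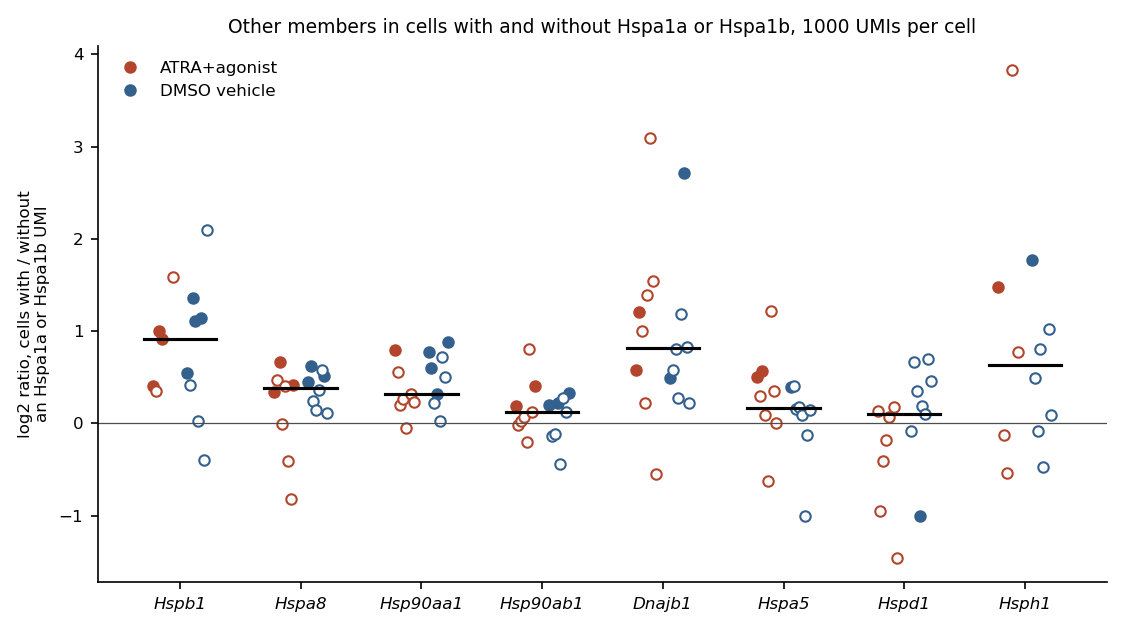
Log2 ratio of the level of 8 members between cells with and without an Hspa1a or Hspa1b UMI, every cell thinned to 1000 UMIs, 1 point per class in ATRA+agonist (red) and DMSO vehicle (blue). Filled points have an interval that does not include 0, and black bars mark the medians, from 0.92 for Hspb1 and 0.82 for Dnajb1 to 0.10 for Hspd1. Combinations with no UMI in 1 of the 2 sets of cells are not drawn. No count minimum was set, and some points rest on few UMIs.

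The wider chaperone network was read from 75 further genes in 8 groups. Over these genes 0 of 66 compared in endothelial-like cells were past the fold on the higher and 2 on the lower side, 1 and 1 of 71 in FAP-like cells, 1 and 1 of 61 in MuSC-like cells and 0 and 5 of 60 in macrophage-like cells. The counts were 4 and 4 of 54 in tenocyte-like, 0 and 1 of 44 in SMC/pericyte-like, 1 and 2 of 50 in neural (glial)-like and 2 and 5 of 39 in perineurial-like cells. Of all genes, 6.6% and 3.77% were past the fold, higher and lower, in endothelial-like and 3.43% and 6% in FAP-like cells. The shares were 6.19% and 4.59% in MuSC-like, 3.51% and 3.65% in macrophage-like and 6.14% and 10.1% in tenocyte-like cells. In SMC/pericyte-like, neural (glial)-like and perineurial-like cells they were 7.22% and 9.37%, 6.56% and 9.25%, and 9.74% and 25.5%. All 8 subunits of the cytosolic chaperonin, which folds actin and tubulin, were compared in every class, and 1 value, Cct6a in perineurial-like cells (-0.73), was past the fold. Their median was between 0.04 and 0.16. None of the compared J-domain proteins was past the fold outside perineurial-like cells, where Dnajc7 was at -0.88.

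Among the co-chaperones, Fkbp5 was the only gene of the network past the fold in the same direction in at least 3 classes. It encodes FKBP51, an immunophilin that binds HSP90 and restrains the glucocorticoid receptor, which in turn induces it. Fkbp5 was lower in ATRA+agonist in all 8 classes, from -1.94 in perineurial-like to -0.88 in MuSC-like and neural (glial)-like cells. It was at 125 CPM in ATRA+agonist and 239 in the DMSO vehicle in FAP-like cells (-0.94, -1.03 to -0.86), 62.5 and 115 in MuSC-like cells (-0.88, -1.12 to -0.64) and 22.0 and 72.0 in macrophage-like cells (-1.71, -2.02 to -1.41). Ptges3 (p23), the co-chaperone that stabilises the closed HSP90 dimer, was lower in 8 of 8 classes as well, but within -0.35 to -0.17. Bag3, an HSP70 exchange factor, ran from -0.48 to 0.05.

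The other groups had members on both sides of 0. Among small heat shock proteins, Cryab, the lens and muscle crystallin, was higher in 5 of the 6 classes in which it was compared, with a median of 0.35 and a value past the fold in tenocyte-like cells (0.54, 0.31 to 0.76), whereas Hspb1 was lower in those cells. Of the endoplasmic reticulum genes, Serpinh1, the collagen chaperone HSP47, was past the fold in tenocyte-like cells (659 and 431, 0.61, 0.49 to 0.74), as were Pdia4 (0.63) and Creld2 (0.61) on the same side and Ddit3 (-0.56) on the lower side, 3 and 1 of 18 compared. Hspa5 in the same cells was at 0.02. Hsp90b1, the HSP90 of the endoplasmic reticulum, ran from -0.31 to 0.42 with no value past the fold. Hspe1, the partner of Hspd1, ran from -0.21 to 0.31. Hspa4 and Hspa2, other HSP70 family genes, had medians of 0.04 and -0.02, and Hsf1 and Hsf2, the heat shock factors, of -0.36 and -0.08 in the 4 classes in which each could be compared. Hsf1 ran from -0.53 to -0.35, with 1 value past the fold, in macrophage-like cells, where 3.65% of all genes were lower. Hsf2 ran from -0.20 to 0.33.

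Immediate early genes, which dissociation also induces, were listed separately (17 genes). Their summed level went with that of the inducible HSP70 genes in some classes and not in others. In MuSC-like cells it was 23215 CPM in ATRA+agonist and 16930 in the DMSO vehicle (0.46), while the summed Hspa1a and Hspa1b ratio was -0.95. Of the 17 genes, 8 were past the fold on the higher side there, beside 6.19% of all genes. In SMC/pericyte-like cells the summed level was 15917 and 22034 (-0.47) and 9 of 17 were past the fold on the lower side, beside 9.37% of all genes. The summed Hspa1a and Hspa1b ratio there was -0.29 (-0.47 to -0.11). Both sums were higher in tenocyte-like cells (0.20, and 0.31 for the pair), where 3 of 17 were past the fold higher, beside 6.14% of all genes. In FAP-like, neural (glial)-like and perineurial-like cells the ratios were 0.10, 0.14 and -0.07, beside -0.08, 0.06 and -0.56 for the pair. In endothelial-like and macrophage-like cells, where Hspa1a and Hspa1b were lower, the summed ratios were -0.02 and 0.03 and 0 of 17 were past the fold. The shares of all genes past it, higher and lower, were 6.6% and 3.77% in endothelial-like and 3.51% and 3.65% in macrophage-like cells. Over the 8 classes the summed level ranged from 15917 to 23263 in ATRA+agonist and from 16492 to 23631 in the DMSO vehicle. The part of dissociation in the members' values was not tested.

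Across 18 profiles of class and library, Hspa1a and Hspa1b resembled each other (Pearson r of log2 levels 0.85), and the next highest r between members was 0.67 for Hsp90ab1 and Hsph1. Hspa1b and Hspd1 gave the lowest r, -0.60. Of 3881 genes with at least 10 UMIs in every profile, Mef2a (0.84), Map7d1 (0.83), Stx12 (0.82), Rhob (0.80) and Brwd3 (0.80) had the highest r with the summed Hspa1a and Hspa1b level. For Hspb1 these were Sp1 (0.91), Nbeal1 (0.89), Ppp1r2 (0.89), Tcf4 (0.88) and Arhgap5 (0.88). The 18 profiles come from 2 libraries and share their classes, so these values are a description only.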

How the data were processed

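The authors deposited filtered gene by barcode matrices of raw UMI counts for both libraries, made by Cell Ranger (7.2.0 in the matrix header) on mm10; kallisto (0.46.2) and FastQC, which the submitters' notes also name, have no stated role for these files. Barcodes with 300 to 5000 genes, under 20% mitochondrial and under 0.25% hemoglobin beta UMIs were kept, and 7.5% were removed as doublets by artificial neighbours. Cells were clustered on 2000 variable genes without chaperone, stress and immediate early genes (30 components, 20 neighbours, Louvain resolution 0.8). Clusters were named from at least 3 markers enriched at least 2-fold; this naming rule was tightened after the clusters had been seen.

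UMIs were summed per class and library and divided by the class total (CPM). Classes needed 100 cells in each library for a comparison and 50 for a level, and genes 100 UMIs. A log2 ratio of 0.5 in size is 1.41-fold. Ratios have exact conditional binomial, levels exact Poisson and shares Clopper-Pearson intervals (95%, counting error only), and a count of 0 was given a limit of 3 counts. All 10 members are named; of the other chaperone lists, the 2 genes with the most UMIs and genes past the fold in at least 3 classes are named, with a few others chosen after their values were seen (Cct6a, Dnajc7, Pdia4, Creld2, Ddit3). Likeness was ranked on log2(CPM + 1). The ratio and its interval were tested on simulated independent Poisson counts. These follow the interval's own model and do not cover UMIs clumped in single cells. Members and lists were chosen with earlier results of these data known. Tools were numpy 2.4.6, scipy 1.17.1, scikit-learn 1.9.0, igraph 0.11.9, pandas 2.3.3 and matplotlib 3.10.9.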

Additional observations from a re-analysis of the deposited data

How the results depend on the processing

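Of 1011 recomputed member ratios, 900 stayed within the counting interval of the reported value, 110 lay outside it with the same sign or from a value not past the fold, and 1 value past the fold changed sign, Hspb1 in neural (glial)-like cells (0.20 after thinning every cell to 1000 UMIs). In all, 63 changed sign, 9 of them from a value whose interval did not include 0. Thinning moved 34 of 74 ratios, and the cause was not tested. Of 108 class medians, 7 lay outside it and none changed sign. The endothelial-like median (-0.18) was -0.14 without the hemoglobin filter, -0.26 after thinning, -0.26 with median-of-ratios scaling, -0.31 with clusters weighted by their pooled cell number and -0.42 in the largest endothelial-like cluster alone, an alternative chosen after seeing the data. The MuSC-like median (-0.12) was -0.24 with each cell weighted equally and -0.37 after thinning. The 1 pair past the fold on the higher side became 0 without doublet removal, 0 with at least 500 detected genes, 0 at resolution 0.4 and 2 after thinning, while the 13 lower pairs ranged from 11 to 16. The count of genes past the fold summed over the compared classes, higher in ATRA+agonist, was 3017, then 13649 with a minimum of 10 UMIs and 254 with a log2 ratio of at least 1. The count of genes past the fold summed over the compared classes, lower in ATRA+agonist, was 3855, then 16967 and 917. The class with the highest level was the same in 18 of 20 orders with cells weighted equally and in 19 of 20 after thinning. Perineurial-like cells were not recomputed under 5 settings, which left 0 to 44 cells in 1 library. No paired analysis was possible because each group had 1 library.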

Other observations

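Members were also counted in barcodes outside the named classes. In 4 unnamed clusters together (968 and 822 cells in ATRA+agonist and DMSO vehicle), Hspa1a was at 65.7 and 110.1 CPM (log2 ratio -0.74, -1.04 to -0.45), Hsph1 at 20.2 and 41.0 (-1.02, -1.55 to -0.51) and Hspa8 at 1140 and 965 (0.24, 0.16 to 0.32). One of these clusters was led by Jchain and Igkc, immunoglobulin genes of plasma cells (137 and 109 cells). Hspa1b was at 58.9 and 126 there (log2 ratio -1.09), Hsp90ab1 at 1030 and 1450 (-0.49, -0.60 to -0.39) and Hspb1 at 2 and 3 UMIs.

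Among barcodes that the other filters and the doublet step removed, with under 0.25% hemoglobin beta UMIs (881 and 720), Hspa1a was at 62.2 and 107 CPM (-0.79, -0.97 to -0.61), whereas Hspb1 was higher in ATRA+agonist, at 370 and 283 (0.39, 0.30 to 0.48). In barcodes at or over 0.25% (2656 and 9721) the CPM of the members was low, with Hspa1a at 6.99 and 11.1 and Hspa8 at 65.2 and 85.4. CPM is taken there over all UMIs, those of hemoglobin included. The counts were not small, with 121 and 693 UMIs of Hspa1a and 1128 and 5339 of Hspa8.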
